A study of Xenopus tropicalis with 16 samples.

Results

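Control animal caps (ACs) were followed from gastrula to neurula. ACs are pieces of prospective ectoderm cut from the top of a blastula, which form embryonic epidermis in culture. The members were chosen by their labels as all Xenopus tropicalis libraries from embryos injected with the control morpholino (CoMo) at stage NF10 (gastrula) or NF16 (neurula). They were 5 of the 16 libraries of the series, 3 at NF10 and 2 at NF16. CoMo is a standard antisense oligomer, so both groups carried an injected morpholino and no uninjected ACs were among them. The other 11 libraries came from CoMo ACs at NF24 (tailbud, 3 libraries) and from ACs injected with Suv4-20H1/2 morpholinos (the knockdown, KD) at NF10 (3), NF16 (2) and NF24 (3). Each library was made from total RNA of pooled explants, staged by sibling embryos, so the stage of the explants themselves was not scored. The series calls its replicates biological, but nothing in the labels says which clutch a library came from.

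In Xenopus the early embryo runs on maternal RNA, and the zygotic genome is switched on broadly before gastrulation. Prospective ectoderm is still close to a pluripotent state at the onset of gastrulation. By the neurula stage it is being patterned into the mucociliary epidermis, which holds goblet cells, ionocytes, small secretory cells and multiciliated cells, while leftover maternal transcripts are degraded. The files give identifiers of gene models and no names, and 0 of the 14373 identifiers were found in the RefSeq table used here. Markers of ectoderm, of the epidermal cell types or of other germ layers were therefore not analysed here, and the label ectoderm was not checked against them. Gene roles, promoter and protein sequences are not given for the same reason. At most 2 identifiers are printed for each direction of change.

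Between 13254827 and 40286023 fragments per library were assigned to genes. NF16 replicate 2 was the deepest, and NF10 replicate 1 the shallowest. Unmapped fragments made up 17.4% to 29.2% of the 5 libraries, without a split by stage. Fragments outside genes made up 22.6% to 28.7% of mapped fragments at NF10 and 31.1% and 31.4% at NF16. The opposite-strand share was 1.21% to 1.91% at NF10 and 1.2% at NF16. Whether the outside-gene share plays a part in the results below was not tested.

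The first question was how the transcriptome as a whole was composed at each stage. RNA was spread over many genes at the gastrula stage and concentrated in far fewer at the neurula stage. The 10 most abundant genes of a library took 5.58%, 2.7% and 2.69% of its fragments in NF10 replicates 1, 2 and 3, and 17.1% and 17.5% in NF16 replicates 1 and 2. The 100 most abundant genes took 17.7%, 12.97% and 12.6% at NF10, and 32.7% and 33.2% at NF16. Both NF16 libraries lay above all NF10 libraries. The effective number of genes, which is the exponential of the Shannon entropy of the fragment shares, was 4225 ± 504 at NF10 (SD, n = 3) and 1822 ± 59.0 at NF16 (SD, n = 2). Each measure had an exact permutation p of 0.2 (two-sided), the smallest that 2 against 3 libraries allow, and 0.267 after adjustment over 8 library measures.

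More genes were nonetheless detected at NF16. Genes with at least 1 CPM, that is 1 fragment per 1000000 assigned, numbered 9709, 9977 and 9736 at NF10 and 10402 and 10281 at NF16 (exact permutation p = 0.2). The groups did not overlap. With all 5 libraries thinned to 13254827 fragments, the counts were 9709, 9964 and 9711 at NF10 and 10406 and 10261 at NF16. The neurula libraries held a wider set of detectable genes and a steeper distribution among them.

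The most abundant genes were mostly not the same ones at the 2 stages. Of the 100 genes with the highest mean CPM at NF10 and the 100 highest at NF16, 36 were shared. The NF16 top 100 took 32.8% of the fragments at NF16 and 8.19% at NF10, where their median rank was 188. None of them was under 1 CPM at NF10 (0 of 100). The NF10 top 100 took 13.9% of fragments at NF10 and 19.6% at NF16. Among the NF16 top 100, 85 genes were higher at NF16 in the test given next and 0 were lower. Of all genes tested, 24.5% were higher and 20.1% lower. With scaling by total counts, taken up below, 68 of the NF16 top 100 were higher. Among the NF10 top 100, 25 genes were higher and 34 lower in the test given next. Each list was drawn from the same libraries, so its counts describe it and are no support for a direction.

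The comparison of NF16 with NF10 asked which genes change while ACs go from gastrula to neurula. Of 13103 genes tested, 5845 (44.6%) changed at adjusted p under 0.05 in the quasi-likelihood test of edgeR. Of these, 3215 (24.5% of the genes tested) were higher at NF16 and 2630 (20.1%) were lower. The median log2 change was 3.44 for the higher genes and -1.98 for the lower ones, so rises were the larger changes on the scale used here. As RNA of whole ACs was measured, more cells of a type cannot be told apart from more RNA per cell. Without NF16 replicate 1 the count was 2878, and without NF16 replicate 2 it was 2889. A lone library then stands for NF16 and is assumed to vary like the NF10 libraries.

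How many calls fell in each direction depended on the scaling. TMM scaling, used above, sets changes relative to the bulk of genes and put the median log2 change of all genes at 0.07. Its factors were 1.14, 1.24 and 1.28 at NF10 and 0.776 and 0.718 at NF16. Scaling by total counts alone moved that median to -0.63, a shift of -0.70, and gave 2315 higher and 4327 lower genes. Such a shift makes rises smaller and falls larger, so it also narrows the gap in size between them. Applied to the TMM medians of 3.44 and -1.98, a shift of -0.70 would bring the sizes close together for those same sets of genes. Total counts also change which genes are called, so this does not carry over to the sets called with them. Of the 2315 genes higher with total counts, 1330 had a TMM log2 change of at least 4. Medians of the called genes were not computed with total counts. The share of calls that were higher was 55.0% with TMM and 34.9% with total counts. No gene called in one direction was called in the other (0 in each case). The 2315 genes higher with total counts were also higher with TMM and with RLE factors, and 2557 genes were lower under all 3 scalings. The statement that higher genes outnumbered lower ones therefore holds for TMM and RLE and turns with total counts.

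**Figure D1:**
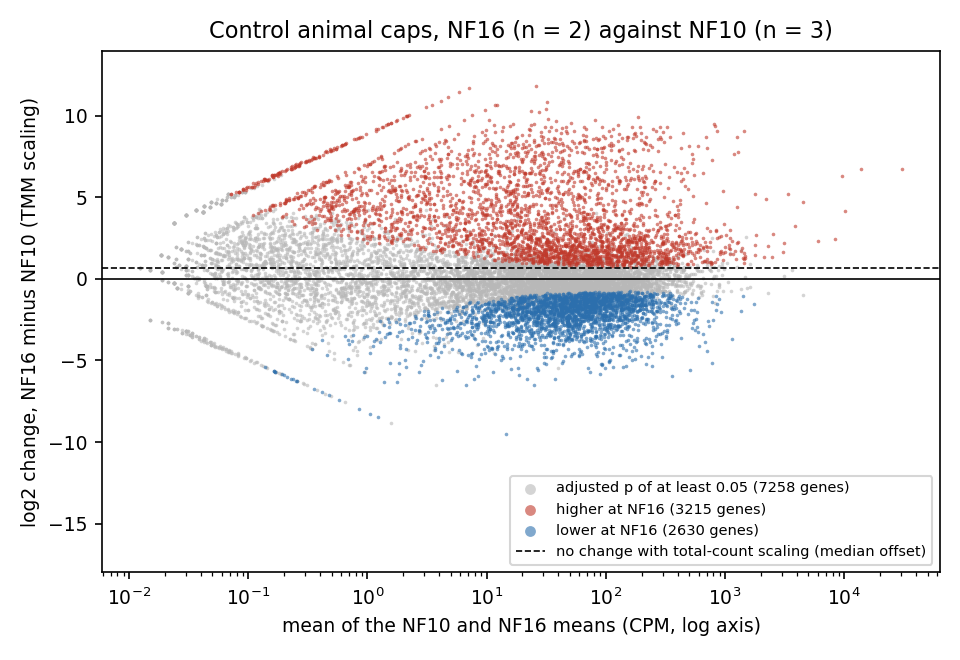
Each point is 1 of 13103 genes, with the mean of the stage means in CPM on a log x axis and the log2 change from NF10 to NF16 on the y axis. Red genes (3215) were higher and blue genes (2630) lower at adjusted p under 0.05. The dashed line marks where the zero of total-count scaling would lie. The red cloud reaches further from 0 than the blue one.

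With TMM scaling, the size of change separated rises from falls more than their number did. At a log2 change of at least 1, 3129 genes were higher and 2515 lower. At least 2 was reached by 2374 higher and 1285 lower genes, at least 4 by 1383 and 188, and at least 6 by 719 and 20. Of the 1383 genes that rose by at least 4, 1330 were also called higher with total counts. Whether these still reached 4 on that scale was not counted. Large rises mostly started from a low level: 906 of the 1383 had a mean under 1 CPM at NF10. A rise of this size is easier to reach from a low level, so the low start is in part built in. Fitted changes of genes without reads at one stage depend on the prior count of the fit and are no bounds. There were 138 such genes among the higher and 19 among the lower ones. They made up 116 of the 719 rises and 11 of the 20 falls of at least 6. With these set to the change that a floor of 3 counts over the stage allows, the medians were 3.28 and -1.98. The floor changes are in plain CPM and the others in TMM scaling, so these medians mix 2 scales.

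**Figure D2:**
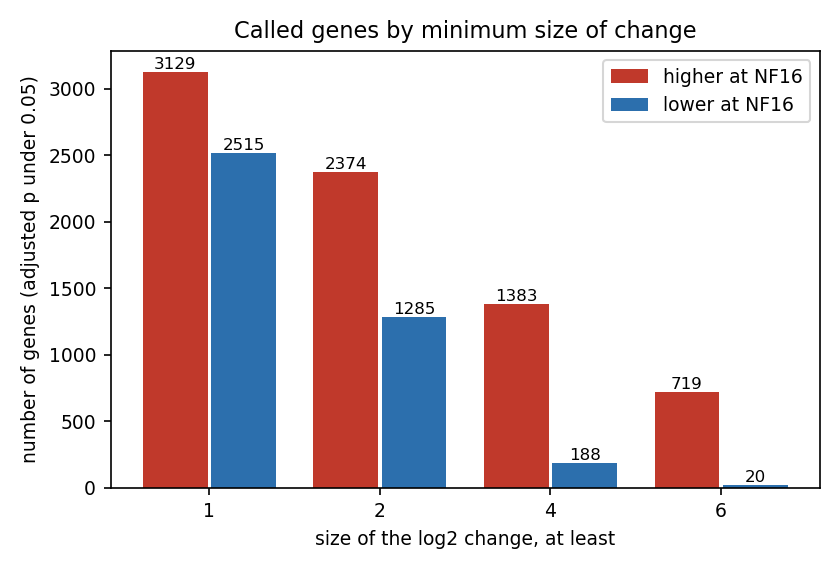
Bars give the number of genes at adjusted p under 0.05 that changed by at least 1, 2, 4 or 6 on the log2 scale, red for higher and blue for lower at NF16. In relative height the blue bar is near the red one at 1 (2515 and 3129) and a small fraction of it at 6 (20 and 719).

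Rising and falling genes also differed in where they started and ended. Genes that rose had a median of 5.27 CPM at NF10 and 45.7 CPM at NF16. A mean under 1 CPM at NF10 was seen for 1070 of them (33.3%), of which 455 were under 0.1 CPM. At NF16 225 (7.0%) were still under 1 CPM, and 1069 (33.3%) were at 100 CPM or more. Genes that fell went from a median of 88.8 CPM to 12.9 CPM. Nearly all of them, 2612 (99.3%), were at 1 CPM or more at NF10, and 2420 (92.0%) were still at 1 CPM or more at NF16. Only 48 fell to a mean under 0.1 CPM. Most genes that fell were thus lowered and stayed detectable, while 33.3% of those that rose came from under 1 CPM. A gene needs a high starting level for a fall to pass the test, so the starting levels of the 2 sets are in part fixed by the calls.

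**Figure D3:**
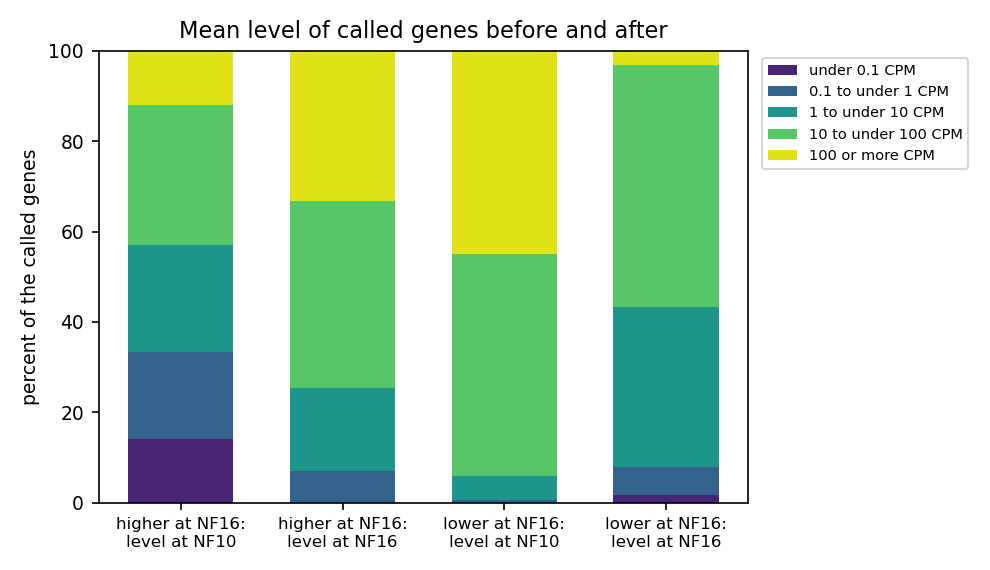
Stacked bars show, for genes called higher and lower at NF16, the percent at each mean level in CPM at NF10 and at NF16. Dark segments (under 1 CPM) hold 33.3% of the higher genes at NF10 and 7.0% at NF16, and 7.98% of the lower genes at NF16.

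The share of genes called differed with the level of expression, by which the tested genes were cut into 4 groups of like size. In the lowest group (up to 2.78 CPM), 18.4% were higher and 2.41% lower, and the median SE of a log2 change was 1.33. In the next (up to 24.5 CPM) 27.4% were higher and 18.5% lower, which is 897 and 607 genes. In the third (up to 75.8 CPM) 22.6% were higher and 31.6% lower, and in the top group 29.8% were higher and 27.7% lower, with a median SE of 0.33. With total counts the balance turned in the second group (695 higher and 1049 lower) and in the top group (667 and 1515), whereas in the lowest group higher calls still outnumbered lower ones (452 and 186). With that SE, falls of moderate size in the lowest group were not detectable at this depth. The median log2 change of the called genes was 5.05, 4.01, 2.51 and 2.23 for rises and -3.84, -2.29, -1.93 and -1.72 for falls, from the lowest group to the top. As a larger SE lets only larger changes pass, these medians are in part fixed by the calls.

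Some genes showed little change relative to the bulk of genes. For 1084 genes (8.27%) the approximate interval of the log2 change lay within 1 either way with TMM, and none of these was called. The interval takes the normal multiplier for 95%, which is too narrow for 5 libraries. The approximate SE also shrinks where the fitted change is very small, even in genes with few reads. The 1084 genes are thus not all shown to be unchanged. For 6174 other genes without a call the interval reached beyond 1, so a change of 2-fold or more was not excluded. Genes kept at 1 CPM or more in all 5 libraries numbered 8837 of 14373. Among these, 1897 were higher and 2385 lower at NF16, against 1175 and 3936 with total counts.

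Genes switched on or off were then counted by level alone, without a test. An onset gene was under 0.1 CPM in each NF10 library and at 1 CPM or more in each NF16 library, and a cleared gene was the reverse. There were 97 onset genes and 7 cleared genes. With the 5 libraries thinned to the same depth there were 114 and 11. Counted by reads alone, 266 genes had reads in both NF16 libraries and none at NF10, and 49 genes had reads in all NF10 libraries and none at NF16. The latter count was 93 after thinning and 195 without NF16 replicate 2, the deepest library. Of the 266, 32 were also onset genes, and the others did not reach 1 CPM in both NF16 libraries. The counts of 266 and 49 ask for reads in 2 and in 3 libraries, so they are not alike. With reads in any library of one stage and none at the other, 551 genes were at NF16 only and 376 at NF10 only. Without NF10 replicate 2 there were 184 onset genes, and without NF10 replicate 1, NF16 replicate 1 or NF16 replicate 2 there were 22, 20 and 29 cleared genes. Fewer libraries then have a limit to meet.

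Onset genes were expressed at low levels at the neurula stage. In NF10 libraries the highest single value among the 97 genes was 0.0754 CPM, which is 1 read in replicate 1. Their median was 4.08 CPM in NF16 replicate 1 and 2.56 CPM in NF16 replicate 2. Those medians rested on 58 and 103 reads. The mean over the NF16 libraries reached 10 CPM for 13 genes and 100 CPM for none, and the highest was 52.1 CPM. Together the 97 genes took 0.0708% and 0.0456% of the NF16 fragments. None of the 100 most abundant genes at NF16 was among them, since each of those averaged 1 CPM or more at NF10.

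The NF24 CoMo libraries, which took no part in the choice of onset genes, show what became of them. All 3 NF24 libraries had at least 1 CPM for 78 of the 97 genes (80.4%), against 71.4% of all genes. No onset gene was under 0.1 CPM in all 3, against 8.05% of all genes. Onset genes were chosen for 1 CPM or more at NF16 and all genes were not, so part of both gaps is built in. Medians at NF24 were 8.25, 6.2 and 5.58 CPM, above both NF16 medians, a difference that was not tested. For 45 genes each NF24 library lay above each NF16 library, and for 14 each lay below. The same was not counted over all genes, so these counts do not set onset genes apart. Of the 7 cleared genes, 3 (42.9%) were under 0.1 CPM in all NF24 control libraries, against 8.05% of all genes. None of the 7 was at 1 CPM or more in any of those libraries. Cleared genes were chosen for under 0.1 CPM at NF16, so part of their gap to all genes is built in too.

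The identifiers printed here were the largest log2 change and the largest difference of mean CPM in each direction, among called genes that averaged 5 CPM or more and did not overlap between stages. The non-overlapping genes were 3516 higher (26.8%) and 5665 lower (43.2%) of those tested in plain CPM. The largest rise was that of Xetrov90024830m.g, which had 0, 0 and 1 reads in NF10 replicates 1, 2 and 3. At NF16 it stood at 73.6 and 30.5 CPM, from 1047 and 1230 reads. It was absent or nearly so in all gastrula libraries and clearly present in both neurula ones. The ratio of pooled CPM was 2457, with an exact 95% interval of 441 to 97100 that covers counting error only. The fitted log2 change was 11.81 (approximate SE 0.77, adjusted p = 6.01e-05 by edgeR). At NF24 the 3 control libraries held 100.7, 69.6 and 76.5 CPM.

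The largest gain in CPM was that of Xetrov90006555m.g. It stood at 1223, 1184 and 217 CPM in NF10 replicates 1, 2 and 3, and at 55100 and 64583 CPM in NF16 replicates 1 and 2. By mean CPM it ranked 86 among all genes at NF10 and 1 at NF16, where its reads were 5.51% and 6.46% of each library. NF10 replicate 3 was well below the other 2, but all 3 were far below both NF16 libraries. The log2 change was 6.78 (approximate SE 0.89, adjusted p = 0.000966 by edgeR) and 6.10 with total counts. Its level at NF24 was 60018 ± 5670 CPM (SD, n = 3), with 53472 CPM in the lowest library.

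The largest fall was that of Xetrov90014747m.g, at 3.09, 73.9 and 9.83 CPM in NF10 replicates 1, 2 and 3. At NF16 it had 1 read in replicate 1 and 0 in replicate 2. All NF10 libraries exceeded both NF16 libraries, but replicate 2 held most of the NF10 reads, 1405 of 1707. The pooled ratio was 1582 (exact 95% interval 284 to 62512, counting error only). The log2 change was -9.49 (approximate SE 2.1, adjusted p = 0.00866 by edgeR), and -7.29 without NF10 replicate 2 and -6.74 with unstranded counts. Without NF16 replicate 1 or replicate 2 the adjusted p of edgeR was 0.0579 and 0.0940. Its NF24 control libraries held 0, 0.0554 and 0 CPM.

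The largest loss in CPM was that of Xetrov90011860m.g, at 3100, 2839 and 2715 CPM in NF10 replicates 1, 2 and 3. At NF16 it stood at 601 and 624 CPM. The replicates of each stage lay close together and far from the other stage. It went from rank 7 to rank 206. The log2 change was -1.53 (approximate SE 0.33, adjusted p = 0.00804 by edgeR), and -2.24 with total counts. Without NF16 replicate 1 or replicate 2 the adjusted p was 0.0873 and 0.0622. It was lower again at NF24, at 193 ± 19.8 CPM (SD, n = 3).

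**Figure D4:**
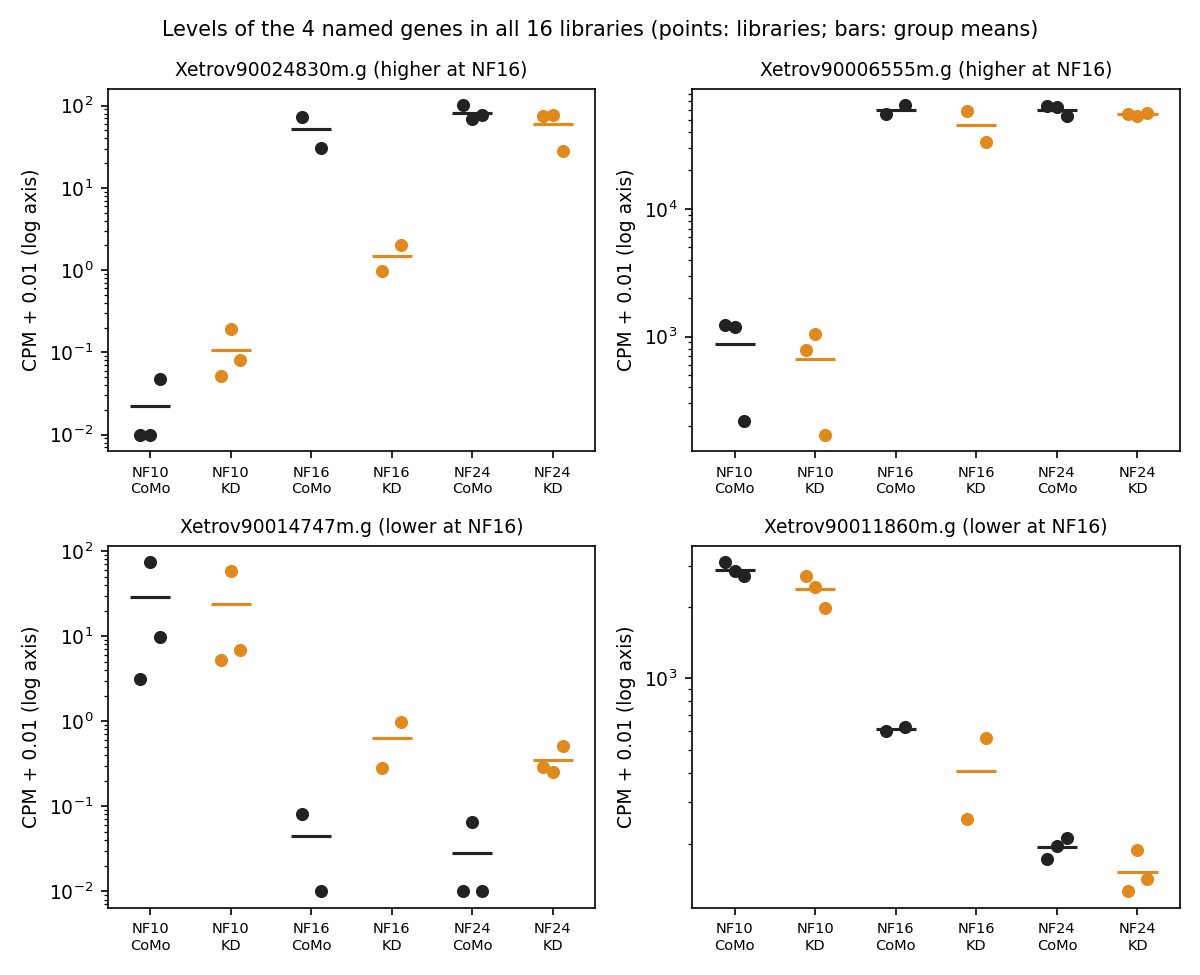
Points are libraries and bars group means of the 4 named genes, in CPM plus 0.01 on a log axis, with CoMo in black and KD in orange at NF10, NF16 and NF24. The upper genes rise from NF10 to NF16 in CoMo and stay high at NF24, and the lower genes fall. Xetrov90024830m.g stands at 0.957 and 2.00 CPM in the NF16 KD libraries, below the CoMo values of 73.6 and 30.5.

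Replicates were closer at NF16 than at NF10. Over the 10625 genes at 1 CPM or more, the median absolute log2 difference between libraries was 0.31 for the NF16 pair and 0.44 to 0.57 for the NF10 pairs. Between stages it was 1.38 to 1.62, more than 2 times the largest difference between replicates. These differences are in plain CPM without TMM factors, so those between stages include the shift between scalings described above. Differences with TMM factors were not computed. NF10 replicate 1 was nearest to the NF16 libraries (1.40 and 1.38) and replicate 3 furthest (1.62 and 1.61). NF16 replicate 1 lay above replicate 2 for 63.3% of genes that rose and 57.9% of genes that fell, against 54.5% of all genes tested. The NF16 replicates differed by over 1 on the log2 scale for 321 genes that rose (9.98%) and 75 that fell (2.85%). That share was not counted over all genes tested.

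The calls divided the fragments of each library as follows. Genes that rose held 18.7%, 14.8% and 14.9% of the fragments in NF10 replicates 1, 2 and 3, and 64.9% and 64.0% in NF16 replicates 1 and 2. Genes that fell held 32.2%, 38.9% and 39.7% at NF10, and 6.31% and 6.18% at NF16. In these 5 libraries the shares follow from the calls. In the NF24 CoMo libraries, on which no call was made, the rising genes held 62.3%, 60.4% and 61.5% and the falling genes 7.74%, 8.37% and 7.21%. For the rising genes all 3 NF24 values lay below both NF16 values, and for the falling genes all 3 lay above. The sets were called on the NF16 libraries and not on the NF24 ones, so part of this gap is built in. The difference between NF16 and NF24 was not tested.

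**Figure D5:**
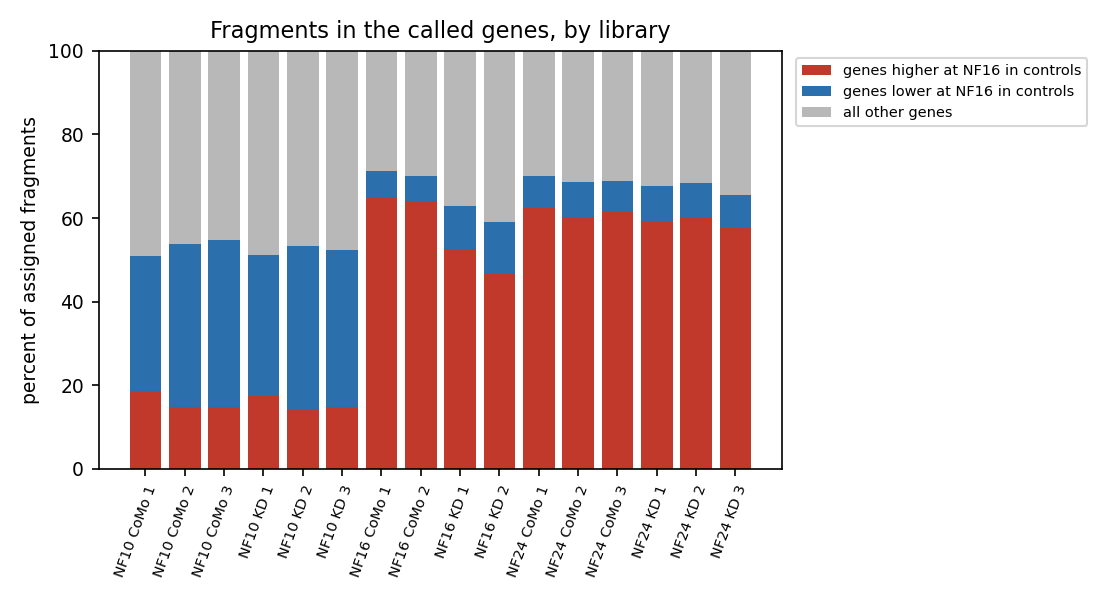
Each bar is 1 of 16 libraries and shows the percent of assigned fragments in genes called higher (red) or lower (blue) at NF16 in controls and in all other genes (grey). Red takes 14.8% to 18.7% in NF10 CoMo and 64.0% to 64.9% in NF16 CoMo, and 46.6% to 52.5% in NF16 KD.

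The same interval in KD ACs was measured in libraries that share none with the controls, although same-numbered NF10 libraries of both kinds deviated together (r = 0.678 to 0.793). From NF10 to NF16 the KD libraries gave 4127 changed genes (31.1% of 13264 tested), 2074 higher (15.6%) and 2053 lower (15.5%). Of the genes that rose in controls, 92.8% had a positive log2 change in KD, against 49.7% of all genes, and 1791 of 3200 measured were called higher. Of the genes that fell in controls, 96.4% had a negative change and 1570 of 2630 were called lower. Without NF16 KD replicate 1 or replicate 2 the KD count was 1334 and 1848. The median log2 change was 3.42 in controls and 1.99 in KD for the rising genes measured in both, and -1.98 and -1.47 for the falling genes. As the sets were called on the controls, part of such a gap is built in, and how much was not tested.

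The difference between the 2 stage changes was tested as an interaction. It passed for 205 of 13363 genes (1.53%), 65 with a higher stage change in KD (0.486%) and 140 with a lower one (1.05%). A fit that blocked on the replicate number inside each stage gave 2127. Leaving out any one of the 10 libraries gave between 0 and 73 genes, and 0 without NF16 CoMo replicate 1, NF16 KD replicate 1 or NF16 KD replicate 2, where 1358, 1817 and 1722 genes had an unadjusted p under 0.05 in edgeR. Among onset genes, 19 of 97 (19.6%) reached 1 CPM in both NF16 KD libraries, where 68.9% of all genes did. Their medians there were 0.729 and 0.483 CPM. At NF24, 84, 87 and 76 of the 97 reached 1 CPM in KD replicates 1, 2 and 3, and 84, 84 and 86 in CoMo. Over all 14373 genes the NF24 KD counts were 11287, 11096 and 11074. Onset gene medians in the NF24 KD libraries were 5.33, 7.76 and 3.12 CPM, and the difference from NF16 was not tested. For 51 of the 97 (52.6%) all NF10 KD libraries were under 0.1 CPM, against 13.1% of all genes. The class was chosen on control values, so its KD shares are a description.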

How the data were processed

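RNA-seq libraries of X. tropicalis animal caps were analysed. Per the labels, total RNA was depleted of ribosomal RNA and made into directional libraries. The paper names either a Ribo-Zero Gold or an NEBNext kit for the depletion. The kit of each library is not given here, so whether it differed between stages was not tested. The deposited values are raw counts of fragments per gene, which the authors made with STAR (2.4.2a per the submitters' processing notes, whereas the study's methods name another release) on Xenbase gene models of the X. tropicalis genome, without normalization. Stages and replicate numbers are those of the sample titles. The names under which the NF16 libraries were deposited carry another stage number, and for some libraries another replicate number, which bears on the replicate block and on the exact stage. Of the stranded columns, the one with the larger total was used. The multimapping tally was 0 in each library, so genes with near-identical copies may be undercounted. Reads of the opposite strand equalled or exceeded those of the gene for 61 of the 5845 called genes, whose counts are uncertain.

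Genes with at least 1 read in at least 2 of the 5 libraries were kept, so that genes with reads at only one stage stayed in. The study's filter, 75% of libraries, was an alternative. NF16 was set against NF10 by edgeR's quasi-likelihood test (edgeR 4.0.16, R 4.3.3), with TMM factors and Benjamini-Hochberg adjustment over all genes tested (threshold 0.05). The common biological coefficient of variation was 0.449. The SE was approximated as the log2 change over the square root of F. CPM values are plain counts per 1000000 assigned fragments. A floor of 3 counts was used for genes without reads, and intervals cover counting error only. Differences between libraries used log2(CPM + 0.5). Single values were compared by exact permutation tests.

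Alternatives were DESeq2 1.42.0, RLE factors, total counts, other filters, unstranded counts, all 6 groups in one fit, a replicate block, a minimum log2 change of 1, thinning, and leaving out each library. The test was first tried on simulated data. Pairs of libraries of one stage differed far beyond sampling noise (chi-square per degree of freedom 76.4 or more), so none was counted as a repeat. The members and lists were chosen with earlier results of these data known. Named genes were, each way, the largest log2 change and the largest difference of mean CPM among called genes that averaged 5 CPM or more and did not overlap between stages. Gene lists by symbol that had been set were not used, as no identifier matched.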

Additional observations from a re-analysis of the deposited data

Results flagged for a closer look

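A difference between the stage change in KD and that in controls was called by edgeR's interaction test for 205 genes. One of the 4 named genes was among them. That gene was picked as the largest rise in the same control libraries, so part of a smaller rise in KD is built in. Xetrov90024830m.g rose by less in KD, with a log2 difference of -7.43 (approximate SE 1.26, adjusted p = 0.0325 by edgeR). At NF10 the gene had 0, 0 and 1 reads in the CoMo libraries and 1, 3 and 2 in the KD libraries. The log2 difference thus rests in part on a few reads. At NF16 the gene stood at 0.957 and 2.00 CPM in the KD libraries, from 21 and 29 reads, and at 73.6 and 30.5 CPM in the CoMo libraries. The NF16 groups did not overlap. At NF24 the KD libraries held 75.3, 77.1 and 28.5 CPM and the CoMo libraries 100.7, 69.6 and 76.5 CPM, which overlap. The call was lost without NF16 CoMo replicate 1 or either NF16 KD library, fits that leave 1 library in a group. Whether it held when any other library was left out is not given here.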

How the results depend on the processing

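Over all results 153 values were recomputed under alternatives, and 106 of them kept their direction and their side of the threshold, or stayed within 1.5 times the count or 1 SD. None reversed its sign (0), but most of the 153 are counts of genes, which carry no sign. The signed values belong to the named genes, picked for large changes, and to the library summaries. The balance of higher and lower calls did turn with total counts. The control count of 5845 ran from 4784 genes with the replicate block to 6707 with all 6 groups in one fit, apart from 3744 genes with a minimum log2 change of 1. Leaving out a library gave 2878 to 6433 genes, 1830 to 3311 of them higher and 1011 to 3122 lower. Lower genes numbered 4327 with total counts only and 1441 with a minimum log2 change of 1. Between NF10 and NF16 controls of one replicate number, deviations from the stage mean correlated at -0.0482 and -0.0459 for replicates 1 and 2. The numbers are those of the titles, from which some deposited library names differ. With only 2 NF16 libraries their deviations mirror each other, so this check cannot show whether the stages were paired. The replicate block gave 2696 higher and 2088 lower genes. The KD count of 4127 was 1334 to 4294 when a library was left out.

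The difference of stage changes moved most. It was 1072 genes in DESeq2, 462 with all 6 groups in one fit and 2127 with the replicate block, for which same-numbered KD and CoMo libraries correlated at 0.678 to 0.793 at NF10 and at -0.126 at NF16. With the NF16 KD numbers crossed, a choice made after seeing the data, the block gave 2972 genes. Without a library it was 0 to 73. Onset genes numbered 64 with limits of 0.05 and 0.5 CPM, 187 with limits of 0.5 and 5 CPM, and 112 to 184 without a library. Cleared genes numbered 2 and 11 with those limits, 11 after thinning, 3 with unstranded counts and 7 to 29 without a library. Genes with reads at NF10 only numbered 93 after thinning and 67 to 195 without a library, and genes with reads at NF16 only 334 to 483. Fewer libraries with a limit to meet let more genes through, which is built into these counts. The cause of the other changes was not tested.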

Other observations

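The gene with the most fragments in NF10 CoMo replicate 1 differed widely between libraries of one stage. It was picked with its values in view and has no name in the files. It took 1.80% of the fragments in that library, 0.150% in replicate 2 and 0.0466% in replicate 3. In the NF10 KD library of the same number it took 2.4%. At NF16 it took 0.459% of CoMo replicate 1 and 0.00426% of replicate 2. Its log2 change between stages was -0.96 (adjusted p = 0.698 by edgeR).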
